A study of Mus musculus with 6 samples.

Results

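The Wnt pathway genes examined here were 58 mouse genes: 19 Wnt ligands, 15 receptors and co-receptors (Frizzled, Lrp, Ror and Ryk), 4 R-spondin agonists, 11 antagonists and 9 intracellular effectors. Their chromatin was described by called ATAC-seq peaks, which mark stretches of DNA open enough for a transposase to insert sequencing adapters. Overlapping peaks of the 6 deposited lists were merged into 75738 consensus regions, and a region belonged to a gene when that gene's span was the nearest protein-coding span within 50 kb. This gave 411 regions at 52 of the 58 genes, out of 62802 regions near any protein-coding gene. Dkk1, Dkk4, Sfrp4, Sfrp5, Rspo2 and Rspo4 had no region in any library. Genes with no region made up 10.3% of the Wnt genes and 28.9% of the 21887 protein-coding genes.

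The cells were sorted from back skin of C57BL/6 mice on postnatal day 60. All mice carried TNC-CREER, a tamoxifen-inducible Cre recombinase tied to the tenascin-C gene, and a tdTomato reporter, and all received 100 µg tamoxifen per g body weight on days 51 and 52. Touch dome (TD) cells, from the epidermal patches that hold Merkel cells, were positive for EPCAM, SCA1, α6-integrin and tdTomato. Interfollicular epidermis (IFE) cells carried the first 3 markers without tdTomato. Hair follicle (HF) cells carried EPCAM and α6-integrin but neither SCA1 nor tdTomato. From each population 2 libraries were made, each from 50000 cells. Whether the libraries of a population represent different mice is not stated in the labels, so their spread may be technical. The TD sort depends on recombination driven from Tnc, so it holds cells in which Tnc was active when tamoxifen was given, and any descendants of such cells.

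Wnt proteins are secreted signals that bind Frizzled receptors together with the co-receptors Lrp5 and Lrp6. Receptor binding stabilises β-catenin, encoded by Ctnnb1, which enters the nucleus and acts with the Lef and Tcf factors, while Ror and Ryk receptors carry signals that do not need β-catenin. Some Dkk proteins block Lrp co-receptors, and Sfrp proteins and Wif1 bind Wnts outside the cell. The membrane ligases Znrf3 and Rnf43 remove Frizzled from the surface unless R-spondins hold them back. In skin this pathway is needed to form hair follicles and to start their growth, and basal epidermal cells also respond to it.

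The lists held between 50153 and 59250 peaks, the most in TD replicate 2, with median peak widths from 858 to 936 bp. They gave no read counts or heights, so the sequencing depth is unknown, and a region is called closed here only for want of a called peak. In sorted bulk cells, fewer open cells and less open chromatin per cell cannot be told apart. Of 17 regions at Tnc, 17 and 17 were open in TD, 11 and 11 in IFE and 13 and 12 in HF. Of 5 regions at Ly6a, which encodes SCA1, 4 and 4 were open in TD, 5 and 5 in IFE and 2 and 2 in HF, and both genes were part of the sort. Lhx2, a hair follicle stem cell regulator, had 10 and 13 of 15 regions open in TD, 7 and 6 in IFE and 13 and 14 in HF. Together the 7 follicle markers had 50 and 61 of 81 open in TD, 44 and 43 in IFE and 68 and 71 in HF. Sox9, of the same list, had 5 and 6 of 9 in TD, 6 and 7 in IFE and 8 and 7 in HF. The 3 IFE markers, with Ly6a, had 10 and 10 of 12 in TD, 11 and 11 in IFE and 8 and 8 in HF. Of these, Krt10 had 3 and 3 of 4 in TD and in IFE, and 4 and 4 in HF. Over 6 touch dome markers, Tnc among them, 50 and 54 of 71 regions were open in TD, 35 and 34 in IFE and 60 and 53 in HF, so TD was above IFE and overlapped HF. The keratinocyte markers Krt5, Krt14, Trp63, Epcam and Itga6 had 49 to 55 of 73 regions open in TD, 55 to 61 in IFE and 47 to 51 in HF. Of 21 regions at the endothelial markers, 12 and 14 were open in TD, 15 and 16 in IFE and 17 and 16 in HF, with 10 to 13 of the 13 at Pecam1 open in every library and the other 8 at Tek. The immune markers had 3 regions, with 2 and 2 open in TD (at Ptprc and Cd3e), 2 and 2 in IFE (at Cd3e and Cd68) and none in HF. The part of such cells in the results was not tested. Among markers of other cells, Tyr, Pmel, Kit, Lum, Cdh5, Kdr, Cd207 and Cd3g had no region in any library.

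Promoter sequences from RefSeq (GRCm38.p6, the assembly behind mm10) were matched to 39 of the 58 genes by symbol. The 6 sequences here are the 250 bases before the most upstream listed start, in the direction of transcription. They were chosen because the Ror2 promoter separated the populations, the Wnt3 and Wnt1 promoters lacked a peak in 1 library, Wnt7a and Lef1 had a promoter region open in all 6 libraries beside others that differed, and Dkk2 had no promoter peak. Capitals mark matches on either strand to the motifs searched, which were TCF/LEF (CTTTGAT), AP-1 (TGANTCA), RUNX (TGTGGT), the GC box (GGGCGG) and the TATA box (TATAAA).
Ror2, chr13:53286125-53286374, minus strand: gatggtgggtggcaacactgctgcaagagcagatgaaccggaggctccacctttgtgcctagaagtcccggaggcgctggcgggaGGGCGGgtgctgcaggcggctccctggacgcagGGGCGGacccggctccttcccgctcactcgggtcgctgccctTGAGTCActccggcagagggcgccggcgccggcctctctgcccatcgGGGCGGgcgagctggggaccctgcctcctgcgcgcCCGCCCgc
Wnt3, chr11:103773925-103774174, plus strand: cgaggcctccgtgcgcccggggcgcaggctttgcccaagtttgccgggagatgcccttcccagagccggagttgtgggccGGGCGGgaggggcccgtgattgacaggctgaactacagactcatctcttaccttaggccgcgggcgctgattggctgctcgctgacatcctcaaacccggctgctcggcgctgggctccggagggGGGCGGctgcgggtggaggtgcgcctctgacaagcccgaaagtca
Wnt1, chr15:98789607-98789856, plus strand: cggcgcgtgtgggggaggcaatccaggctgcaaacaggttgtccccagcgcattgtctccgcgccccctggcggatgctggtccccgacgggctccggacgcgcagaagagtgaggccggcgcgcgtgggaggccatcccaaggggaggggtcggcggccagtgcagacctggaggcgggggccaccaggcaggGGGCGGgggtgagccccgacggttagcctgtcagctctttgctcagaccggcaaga
Wnt7a, chr6:91411354-91411603, minus strand: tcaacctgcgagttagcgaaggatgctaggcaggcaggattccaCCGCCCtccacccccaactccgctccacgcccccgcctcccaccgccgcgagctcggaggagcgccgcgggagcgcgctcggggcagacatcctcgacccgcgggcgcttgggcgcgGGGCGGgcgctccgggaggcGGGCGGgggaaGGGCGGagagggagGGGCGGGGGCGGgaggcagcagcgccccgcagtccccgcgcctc
Lef1, chr3:131110047-131110296, plus strand: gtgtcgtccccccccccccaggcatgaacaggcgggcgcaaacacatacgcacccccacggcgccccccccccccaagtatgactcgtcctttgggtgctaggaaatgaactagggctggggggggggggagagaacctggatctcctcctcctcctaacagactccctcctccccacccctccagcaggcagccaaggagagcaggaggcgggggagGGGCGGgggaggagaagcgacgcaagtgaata
Dkk2, chr3:132085042-132085291, plus strand: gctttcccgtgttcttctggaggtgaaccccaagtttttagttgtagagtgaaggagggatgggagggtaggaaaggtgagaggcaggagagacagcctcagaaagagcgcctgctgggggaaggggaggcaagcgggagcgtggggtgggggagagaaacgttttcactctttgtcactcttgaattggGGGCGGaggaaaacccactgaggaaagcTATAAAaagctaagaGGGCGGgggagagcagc

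A promoter window of 300 bases, 250 before the start and 50 after it, was scored by whether any peak reached it. A peak was present in all 6 libraries at 21 of the 39 Wnt promoters (53.8%), where 51.4% of 17492 promoters had that state. They included the promoters of Axin2, a direct target and inhibitor of the pathway, of Ctnnb1, of Tcf7, Tcf7l1 and Tcf7l2, and of 6 Frizzled genes. No library had a peak at 8 promoters (Dkk1, Dkk2, Rspo1, Rspo4, Sfrp2, Sfrp5, Wnt2 and Wnt8b), which is 20.5% against 43.0% of all promoters. The other 10 (Lef1, Ror2, Wnt1, Wnt3, Wnt4, Wnt5b, Wnt6, Wnt7a, Wnt9a and Wnt10b) had a peak in some libraries, 25.6% against 5.62% of all promoters. The window is narrow, and at Lef1, Wnt7a, Wnt6, Wnt9a and Wnt10b the consensus region overlapping the window was open in all 6 libraries although the peaks of some did not reach the window.

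Of these promoters, Ror2 alone was open in both TD and neither IFE library, where 0.252% of all promoters were, and it was also the 1 Wnt promoter open in both HF and neither IFE library, against 0.880% of all. The Wnt4 window was open in both HF and neither TD library, a state of 0.577% of all promoters, and in IFE replicate 1, although the consensus region overlapping it had a peak in both TD libraries. No Wnt promoter was open in IFE and closed in TD (0.234% of all promoters were), open in TD and closed in HF (0.566%) or open in IFE and closed in HF (0.766%). The Wnt promoters were rich in G and C. The median was 72.0% (range 44.4 to 87.6) where all 6 libraries had a peak, against 60.8% over all promoters of that state, and 62.2% (48.4 to 69.6) where none had, against 47.2%. A GC box occurred in 30 of 39 Wnt promoters (76.9%) and in 42.7% of all promoters of the same length. The AP-1 letters occurred in 2 (Ror2, starting 90 bases before its start, and Wnt5b), which is 5.13% against 6.18% of all. TCF/LEF letters occurred in 1 (Wnt11), 2.56% against 2.89%, RUNX letters in 3 (7.69% against 12.4%) and the TATA box in 7 (17.9% against 12.4%). No matches to different motifs overlapped in the sequences shown.

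Between IFE and HF, the ligand class ran against the receptor, effector and antagonist classes. At the 101 regions of ligand genes, 84.2% and 84.2% had a peak in TD, 82.2% and 76.2% in IFE and 73.3% and 75.2% in HF. Every TD and IFE library was above both HF libraries, though IFE replicate 2 had only 77 regions open where HF replicate 2 had 76. Of the 13 ligand regions open in TD and IFE and closed in HF, Wnt3, Wnt5a and Wnt7a held 3 each. All regions near genes had 66.5% and 78.4% open in TD, 71.2% and 68.7% in IFE and 72.4% and 74.8% in HF. The ligand shares in HF were thus close to those of all regions, and the ligand shares in TD and IFE were above them. At the 146 receptor regions the shares were 56.2% and 73.3% in TD, 59.6% and 57.5% in IFE and 81.5% and 77.4% in HF. At the 96 effector regions they were 57.3% and 76.0% in TD, 61.5% and 61.5% in IFE and 86.5% and 80.2% in HF, and here again both HF libraries were highest. Antagonist regions, 65 in all, had 64.6% and 78.5% open in TD, 69.2% and 66.2% in IFE and 78.5% and 80.0% in HF, with the second TD library level with HF. The TD replicates differed by more than TD and IFE did in the receptor, effector and antagonist classes, and were equal in the ligand class.

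**Figure D1:**
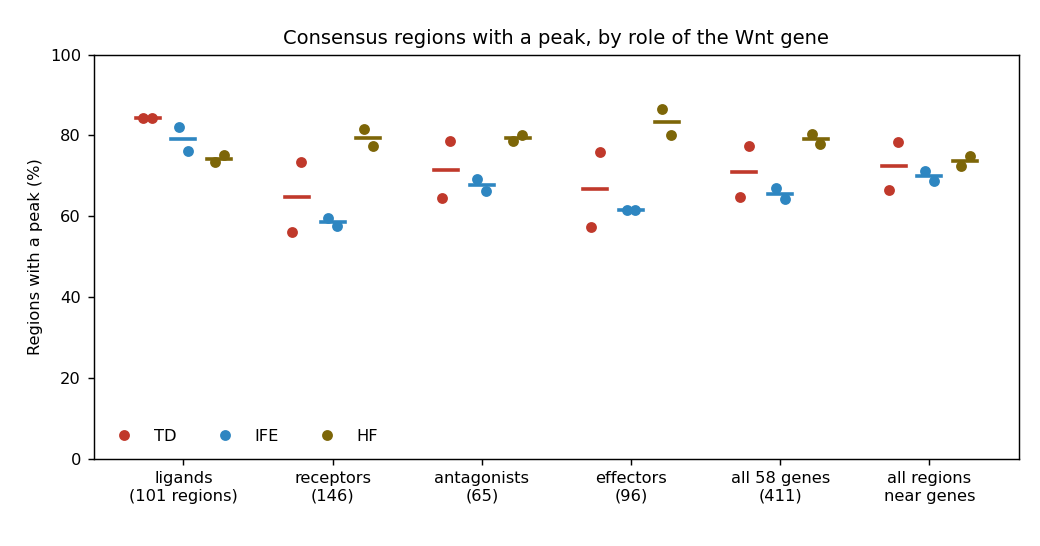
Share of consensus regions with a peak (y axis, percent) for each class of Wnt gene, for all 411 Wnt regions and for all 62802 regions near genes. Points are the 2 libraries of TD, IFE and HF and bars their mean; ligand regions are highest in TD and lowest in HF, while receptor and effector regions are highest in HF.

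Over all 411 regions, 64.7% and 77.4% were open in TD (mean 71.0% ± 8.95), 66.9% and 64.2% in IFE (65.6% ± 1.89) and 80.3% and 77.9% in HF (79.1% ± 1.72; SD, n = 2 each). TD minus IFE was 5.47 percentage points, within the spread of the TD libraries, TD minus HF was -8.03, and IFE minus HF was -13.5. Over all regions near genes the same 3 differences were 2.49, -1.17 and -3.66 points. With 2 libraries a population, an exact permutation test over libraries (two-sided) cannot go below p = 0.333, so none of these differences could pass 0.05.

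**Figure D2:**
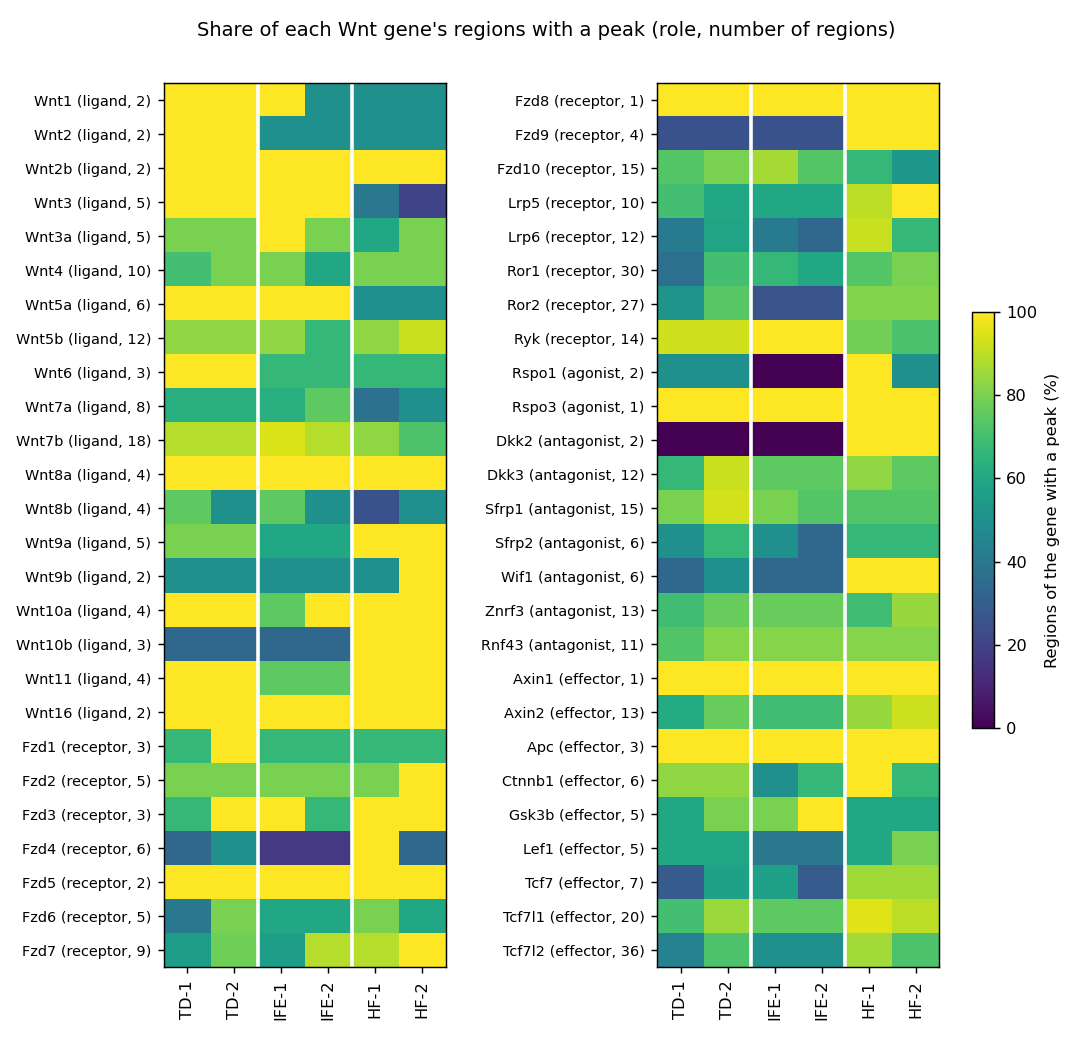
Share of each gene's consensus regions with a peak (colour, percent) in each library (columns) for the 52 Wnt genes with a region (rows, with role and number of regions). Fzd9, Dkk2, Wnt10b and Wif1 are fully open in HF only, Wnt3 and Wnt5a in TD and IFE only, and Ror2 is least open in IFE.

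The comparison of TD with IFE asked how tdTomato-positive cells differ from other SCA1-positive basal cells. At the Wnt genes, 22 regions had a peak in both TD and neither IFE library (5.35%), close to the 4.48% of all regions near genes. The reverse held for 5 regions (1.22% against 1.82%). When each side instead joined 1 TD with 1 IFE library, the counts were 3 and 7 regions, or 0 and 6, the larger number always on the side of TD replicate 2. Receptor genes held 9 of the 22 (6.16% of receptor regions), ligand genes 5 (4.95%), effector genes 4 (4.17%), antagonist genes 3 (4.62%) and the agonist gene Rspo1 held 1. These 4 class shares were also near the 4.48% of all regions, and Ror2 alone held 6 of the 9 receptor regions. Of the 22, 18 were also open in both HF libraries, and 3 were open in TD alone, 1 each at Ror2, Sfrp1 and Wnt6. Most such regions near any gene were likewise shared with HF. Of 2814, 2058 were also open in both HF libraries and 607 in TD alone. Without TD replicate 1 there were 51 regions open in TD and closed in IFE (12.4%, beside 10.8% of all regions under that looser rule). In the other direction there were 23 without TD replicate 2 (5.60% beside 6.52%), 9 without IFE replicate 1 (2.19% beside 3.46%) and 12 without IFE replicate 2 (2.92%, again under the share of all regions by that rule). By gene, 14 of 52 (26.9%) had more regions open in TD and 2 (3.85%) more open in IFE, where 11.3% and 5.21% of all genes with a region did. Those genes had a median of 2 regions and the Wnt genes 5, so these gene shares are not like for like.

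Ror2, which encodes a receptor tyrosine kinase for Wnt5a, held the most TD regions, 6 against 0 in IFE. It lies on chromosome 13 from 53109317 to 53286124 (mm10) on the minus strand. Of its 27 regions, 14 and 20 had a peak in TD, 7 and 7 in IFE and 22 and 22 in HF. The 2 IFE libraries were below every other library. The region at its start (53285235 to 53286377), whose promoter sequence is shown above, had peaks of 566 and 698 bp in TD, none in IFE and peaks of 809 and 1091 bp in HF. Inside the gene, regions from 53204746 to 53205795, from 53236077 to 53237250 and from 53266671 to 53267133 shared that state, as did a region 12.5 kb before the start (53298585 to 53299448). The sixth (53126060 to 53126812) was open in both TD libraries alone, with peaks of 588 and 704 bp. Beyond the other end of the gene, 2 regions (53088581 to 53089080 and 53099592 to 53100405) were open in TD and IFE and closed in HF, and the IFE peaks there were 356 to 780 bp long. The net TD count over IFE was 13 without TD replicate 1, and it lay between 6 and 13 whichever library was left out. It was 4 with equal numbers of the widest peaks, 3 when peaks had to fill 50% of a region and 1 with the wider 50% of peaks. The net HF count over IFE was 13, and 3 with the wider 50% of peaks. Between TD and HF, Ror2 had 3 regions open in TD and closed in HF and 3 of the reverse kind.

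Pooled over each list, markers of fibroblasts and melanocytes, cells that an EPCAM gate selects against, were also open more often in TD and HF than in IFE. Of 14 regions at 4 of 5 fibroblast markers, 9 and 11 were open in TD, 5 and 3 in IFE and 13 and 12 in HF, while Lum had no region. The 1 region at Dcn was open in both TD libraries and in no IFE or HF library. Of 24 regions at 3 of 6 melanocyte markers, 18 and 21 were open in TD, 13 and 13 in IFE and 21 and 21 in HF, with Tyr, Pmel and Kit at none. Mitf held 20 of the 24, with 14 and 17 open in TD, 10 and 11 in IFE and 18 and 18 in HF. Tyrp1, with 2 regions, differed, having 2 and 2 open in TD, 2 and 1 in IFE and 1 and 1 in HF. The part of fibroblasts and melanocytes in the Ror2 result was not tested. Merkel cell markers, at 7 regions of 6 genes, had 3 and 5 open in TD, 7 and 4 in IFE and 4 and 4 in HF.

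**Figure D3:**
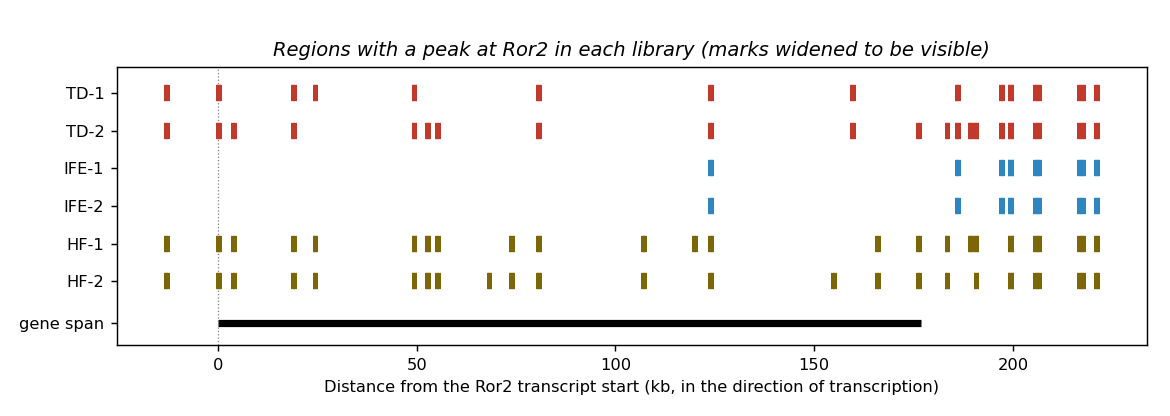
Consensus regions with a peak at Ror2 in each library (rows), by distance from the transcript start (x axis, kb, in the direction of transcription), with the gene span in black. Each mark is the consensus region, widened where narrow; TD and HF libraries share marks over the start and first part of the gene where IFE has none, and the 4 regions farthest past the end of the gene are open in all 6 libraries.

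Apart from Ror2, no Wnt gene had more than 1 region open in TD and closed in IFE. Those with 1 were Ctnnb1, Fzd4, Lef1, Lrp6, Ror1, Rspo1, Sfrp1, Sfrp2, Tcf7l1, Tcf7l2, Wif1, Wnt2, Wnt5b, Wnt6, Wnt9a and Wnt11. The Wnt2 region, within 1 kb of the higher-coordinate end of the gene on chromosome 6, from 18031358 to 18032016, had a peak in both TD libraries, in neither IFE library and in HF replicate 1. Lef1, a nuclear partner of β-catenin that marks hair-forming cells, had a TD region inside the gene (131181767 to 131182717 on chromosome 3) that was also open in HF. In the other direction Tcf7l2 had 2 regions and Ror1, Tcf7l1 and Znrf3 had 1 each. The Znrf3 region lay within 1 kb of its higher-coordinate end on chromosome 11 (5443558 to 5444087) and was open in both IFE libraries alone. Without Ror2, the count open in TD and closed in IFE was 16 (4.17%), beside the 4.48% of all regions.

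Between TD and HF, 33 regions were open in TD and closed in HF (8.03%, beside 8.02% of all regions near genes), and 37 showed the reverse, where 7.26% of all did. Groupings that mixed TD and HF libraries gave 0 and 2 regions, or 1 and 4. Ligand genes held 14 TD regions (13.9% of their regions) and 5 HF regions (4.95%). Receptor genes held 7 (4.79%) and 13 (8.90%), effector genes 5 (5.21%) and 10 (10.4%), and antagonist genes 7 (10.8%) and 9 (13.8%). No test compared the classes. Without TD replicate 2 the HF count was 81 (19.7%, beside 13.5% of all regions under that rule), and without HF replicate 2 it was 60 (14.6% beside 10.1%). By gene, 12 (23.1%) had more regions open in TD and 14 (26.9%) more open in HF, where 16.9% and 14.8% of all genes with a region did. Here too the Wnt genes had more regions per gene in which to differ.

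Between IFE and HF, 36 regions were open in IFE and closed in HF (8.76%, beside 9.91% of all) and 75 were of the reverse kind (18.2% beside 12.8%). Mixed groupings gave at most 2 regions on any side. Receptor genes held 33 of the 75 (22.6% of receptor regions), effector genes 18 (18.8%), antagonist genes 14 (21.5%), ligand genes 9 (8.91%) and Rspo1 held 1. Ror2 alone held 15, and without it the HF count was 60 (15.6%). By position, 46 of the 75 lay inside genes (23.1% of such Wnt regions, beside 16.4% of all such regions), 26 outside (16.6% beside 13.9%) and 3 within 1 kb of a gene end (5.45% beside 3.06%). By gene, 10 had more regions open in IFE and 23 more open in HF. Over all genes with a region the shares were 18.1% and 20.5%, but those genes had a median of 2 regions and the Wnt genes 5, so a Wnt gene had more regions in which to differ.

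**Figure D4:**
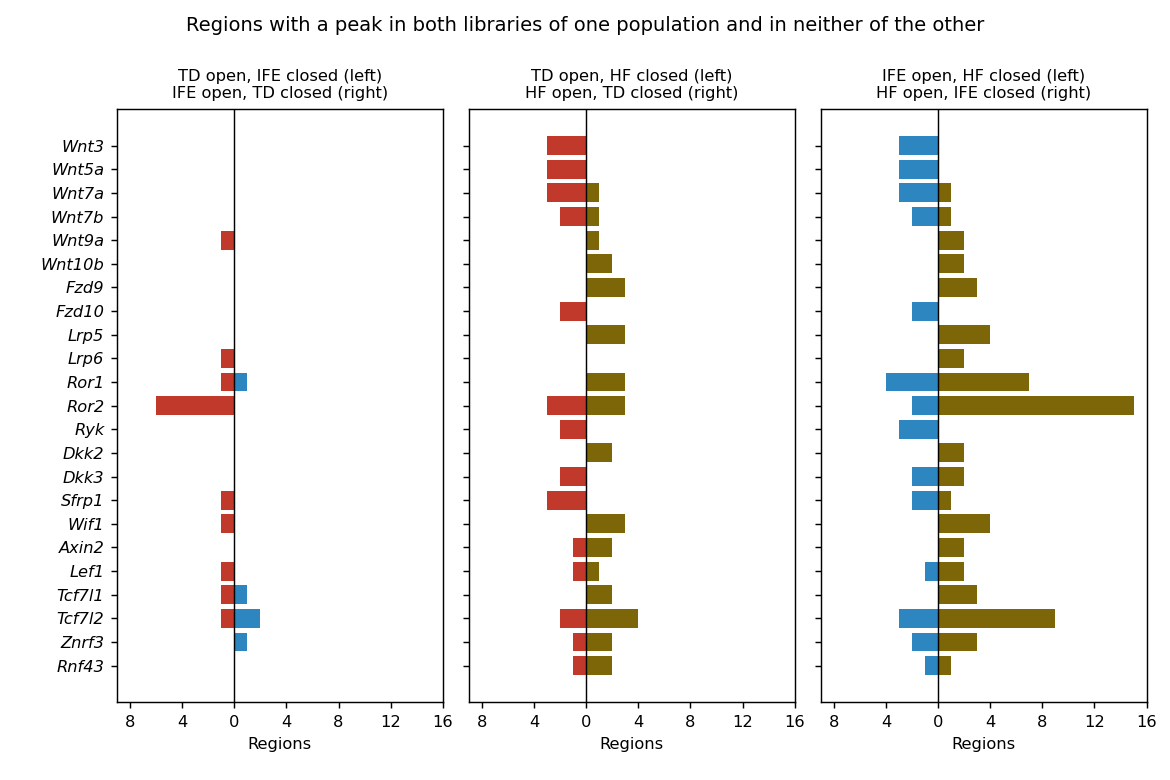
Number of regions open in both libraries of one population and closed in both of the other (x axis), for the 23 Wnt genes with at least 2 such regions in a direction of any comparison. Bars to the left belong to the first-named population of each panel; Ror2 reaches 6 for TD over IFE and 15 for HF over IFE, and Wnt3 and Wnt5a each reach 3 for TD and for IFE over HF with none the other way.

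At the regions that separated IFE from HF, TD stood with IFE for the regions open in IFE. Both TD libraries were open at 29 of those 36 (80.6%, beside 63.7% of all such regions near genes), and neither was at 3. At the 75 regions open in HF and closed in IFE, both TD libraries were open at 18, where 25.6% of all such regions were, neither at 33 (44.0% beside 48.7%), TD replicate 1 alone at 3 and TD replicate 2 alone at 21. TD replicate 1 thus had a peak at 21 of these HF regions and TD replicate 2 at 39, where 27.4% and 49.5% of all such regions did. Over the whole set, 185 Wnt regions were open in all 6 libraries (45.0% beside 48.2%), 29 in TD and IFE alone (7.06% beside 6.31%), 33 in HF alone (8.03% beside 6.22%) and 18 in TD and HF alone (4.38% beside 3.28%). In TD alone 3 were open (0.730% beside 0.967%), in IFE alone 3 (0.730% beside 1.22%) and in IFE and HF alone 2 (0.487% beside 0.336%). In 138 (33.6% beside 33.5%) the replicates of some population differed.

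Among ligands, Wnt3, Wnt5a and Wnt7a each had 3 regions open in TD and IFE and closed in HF. Wnt3, a ligand of the β-catenin branch on chromosome 11 from 103774175 to 103818021, had 5 and 5 of 5 regions open in TD, 5 and 5 in IFE and 2 and 1 in HF. The 3 absent from HF all lay inside the gene, at 103780071 to 103780645, 103801002 to 103801612 and 103810197 to 103810950. The region at its start (103771718 to 103774599), which also lies within the span of its neighbour Wnt9b, had peaks of 2036 and 2119 bp in TD, 2439 and 2485 bp in IFE and 642 bp in HF replicate 1, with none in HF replicate 2. HF libraries were thus below all the others at every one of the Wnt3 regions, by presence or by length. When peaks had to fill 50% of a region, the excess of 3 over HF was 5 in both TD and IFE. With the wider 50% of peaks it was 2 in both.

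Wnt5a, best known for signalling through Ror2, lies on chromosome 14 from 28504543 to 28527448 and had 6 and 6 of 6 regions open in TD, 6 and 6 in IFE and 3 and 3 in HF. Those closed in HF lay beyond the end with the higher coordinate, the nearest by 0.517 kb and the next by 5.38 kb. The excess of 3 over HF, in TD as in IFE, was 4 when peaks had to fill 50% of a region. It was 2 for both within 10 kb and with the wider 50% of peaks, and for TD with equal numbers of the widest peaks. At a region inside the gene (28510150 to 28511981), open in all 6 libraries, peaks measured 1307 and 1495 bp in TD, 1722 and 1463 bp in IFE and 516 and 441 bp in HF, so each TD and IFE peak was at least 2 times as long as either HF peak. Wnt7a, an epidermal ligand on chromosome 6 from 91363981 to 91411353, had 5 and 5 of 8 regions open in TD, 5 and 6 in IFE and 3 and 4 in HF. Of its 3 regions absent from HF, 1 sat at the downstream end of the gene (91364052 to 91364611), 1 inside it and 1 lay 35.0 kb outside it. Another region of Wnt7a (91339390 to 91339758) was open in HF alone. The net excess of 2 regions over HF, in TD as in IFE, was 1 without HF replicate 1. With the wider 50% of peaks it was 0 in TD, and 4 in IFE when each list gave equal numbers of its widest peaks.

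By the presence of peaks, Wnt10b took the opposite course, but not by peak length at its start. The start region (98775688 to 98778108) had peaks of 2064 and 2262 bp in TD, 2218 and 2205 bp in IFE and 973 and 1486 bp in HF. This ligand, known for promoting hair growth, had 1 and 1 of 3 regions open in TD, 1 and 1 in IFE and 3 and 3 in HF, and its HF regions flanked the shared region at the start, on chromosome 15 at 98772429 to 98773275 and 98780512 to 98781071. The HF excess of 2, over TD as over IFE, was 0 with the wider 50% of peaks. Its neighbour Wnt1 had 2 and 2 regions in TD, 2 and 1 in IFE and 1 and 1 in HF. Wnt9a had 4 and 4 of 5 in TD, 3 and 3 in IFE and 5 and 5 in HF, and its HF excess of 2 over IFE was 0 with the wider 50% of peaks. Wnt7b, with 18 regions, had 16 and 16 in TD, 17 and 16 in IFE and 15 and 13 in HF. Wnt10a, whose loss impairs skin appendages, had its 4 regions open in every library except 1 region in IFE replicate 1. Wnt2b, Wnt8a and Wnt16 were open at all their regions in all 6 libraries.

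**Figure D5:**
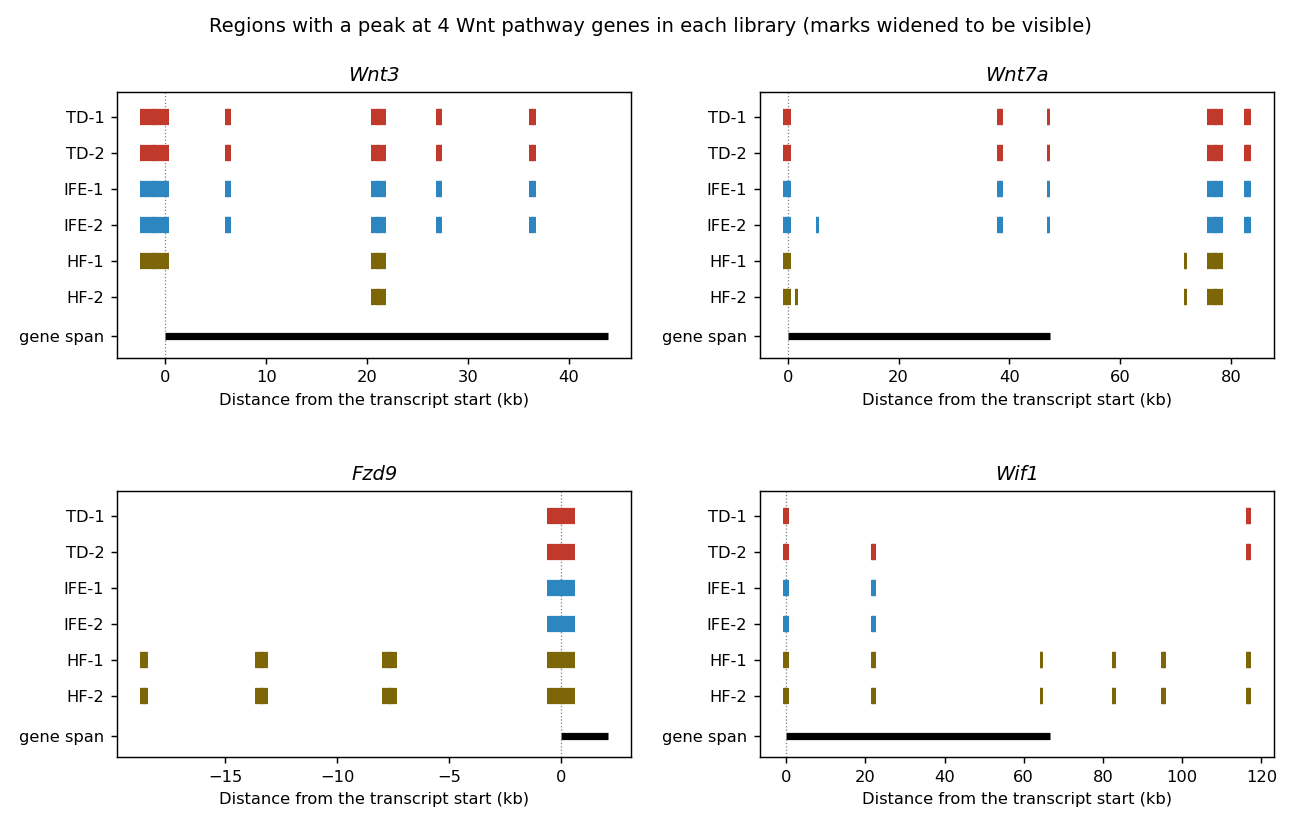
Consensus regions with a peak at Wnt3, Wnt7a, Fzd9 and Wif1 in each library (rows), by distance from the transcript start (x axis, kb, in the direction of transcription), with the gene span in black. Wnt3 and Wnt7a each have 3 regions in TD and IFE that HF lacks, while Fzd9 and Wif1 each have 3 that HF alone holds.

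Among the receptor genes other than Ror2, Fzd9, Lrp5 and Ror1 each had 3 regions open in HF and closed in TD and none of the reverse kind. Fzd9, a Frizzled receptor gene on chromosome 5 from 135248938 to 135251047, had 1 and 1 of 4 regions open in TD, 1 and 1 in IFE and 4 and 4 in HF. The shared region covered its start, and the 3 HF regions lay 7.33, 13.1 and 18.4 kb before it. The HF excess of 3, over TD as over IFE, was 1 with equal numbers of the widest peaks, 1 within 10 kb and 0 with the wider 50% of peaks. Lrp5, the co-receptor gene on chromosome 19 from 3584825 to 3686585, had 7 and 6 of 10 regions in TD, 6 and 6 in IFE and 9 and 10 in HF, with 3 open in HF alone inside the gene. Its HF excess of 3 over TD and 4 over IFE was 0 with the wider 50% of peaks. Its relative Lrp6 had 5 and 7 of 12 in TD, 5 and 4 in IFE and 11 and 8 in HF, and its net HF count over IFE was 2, or 6 without HF replicate 2, and 1 for equal numbers of the widest peaks or for the wider 50% of peaks.

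Ror1, the relative of Ror2 on chromosome 4 from 100095791 to 100444806, had 30 regions, with 11 and 21 in TD, 20 and 18 in IFE and 22 and 24 in HF. It differed both ways, with 4 regions open in IFE and closed in HF and 7 the reverse. The TD libraries lay on either side of IFE, and the net HF excess over TD of 3 became 1 without TD replicate 1, 10 without TD replicate 2 and 5 without HF replicate 1, and the excess over IFE became 5 without HF replicate 1. With the wider 50% of peaks the balance turned, to 1 region more in TD and 4 more in IFE, and over IFE it was 0 for equal numbers of the widest peaks and 1 when peaks had to fill 50% of a region. Unlike these, Ryk and Fzd10 leaned away from HF. Ryk, a Wnt-binding receptor gene, had 13 and 13 of 14 regions in TD, 14 and 14 in IFE and 11 and 10 in HF, and Fzd10 had 11 and 12 of 15, 13 and 11, and 10 and 8 in TD, IFE and HF. The Fzd10 excess of 2 over HF became 1 without HF replicate 2 in both comparisons, and 4 for IFE without IFE replicate 2. Within 10 kb it was 1 for both, and for TD also 1 when peaks had to fill 50% of a region and in both settings that kept the wider peaks. The Ryk excess over HF, 2 in TD and 3 in IFE, was 0 within 10 kb for both, and with the wider 50% of peaks it was -1 in TD and 0 in IFE. In TD it was 1 when peaks had to fill 50% of a region. Fzd7 had 5 and 7 of 9 regions in TD, 5 and 8 in IFE and 8 and 9 in HF, including a region 0.614 kb beyond its end on chromosome 1 (59487569 to 59488100) open in HF and closed in IFE. Fzd5 and Fzd8 were open at all their regions in every library.

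The R-spondin genes gave few regions. Rspo1, a secreted agonist, had 1 and 1 of 2 regions in TD, none in IFE and 2 and 1 in HF. Rspo3 had a single region at the higher-coordinate end of its span on chromosome 10 (29532963 to 29535859), open in all 6 libraries but of unequal length. Peaks there measured 748 and 2442 bp in TD, 2895 and 2863 bp in IFE and 683 and 624 bp in HF, so that IFE exceeded HF in both libraries and TD spanned the difference.

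Among antagonists, Wif1 and Dkk2 were on the HF side. Wif1, a secreted Wnt inhibitor on chromosome 10 from 121034004 to 121100642, had 2 and 3 of 6 regions in TD, 2 and 2 in IFE and 6 and 6 in HF. Of these, 3 were open in HF alone, 1 inside the gene and the others 15.7 and 28.1 kb beyond it, and 1 was shared by TD and HF (121150146 to 121151287). Its HF excess of 3 over TD and 4 over IFE was 1 for both within 10 kb, 5 and 7 within 100 kb and, over IFE, 2 with the wider 50% of peaks. Dkk2, which blocks Lrp co-receptors, had no open region in TD or IFE and 2 and 2 of 2 in HF, with peaks of 298 to 446 bp. The HF excess of 2, over TD as over IFE, was 0 when equal numbers of the widest peaks or the wider 50% of peaks were used, and 1 within 10 kb.

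Between TD and HF, Sfrp1 and Dkk3 leaned weakly the other way. Between IFE and HF, Dkk3 did not lean, with 2 regions open in IFE and closed in HF and 2 the reverse. The same counts for Sfrp1 were 2 and 1. Sfrp1, a secreted antagonist with 15 regions, had 12 and 14 open in TD, 12 and 11 in IFE and 11 and 11 in HF. Its TD excess over HF of 3 was 1 without TD replicate 2, 1 within 10 kb and -1 with the wider 50% of peaks. Dkk3 had 8 and 11 of 12 in TD, 9 and 9 in IFE and 10 and 9 in HF, and its TD excess of 2 became -1 without TD replicate 2 and 1 without HF replicate 2. It was also 1 within 10 kb and when each list gave equal numbers of its widest peaks. The membrane ligase genes differed little in number, Znrf3 with 9 and 10 of 13 in TD, 10 and 10 in IFE and 9 and 11 in HF, and Rnf43 with 8 and 9 of 11, 9 and 9, and 9 and 9 in the same order.

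Of the 18 effector regions open in HF and closed in IFE, Tcf7l2 held 9, Tcf7l1 held 3, Axin2 and Lef1 held 2 each, and Tcf7 and Ctnnb1 held 1 each. Of the 10 open in HF and closed in TD, Tcf7l2 held 4, Tcf7l1 and Axin2 held 2 each, and Lef1 and Tcf7 held 1 each. Tcf7l2, a partner of β-catenin on chromosome 19 from 55741797 to 55933659, had 36 regions, the most of any Wnt gene, with 16 and 26 open in TD, 18 and 18 in IFE and 31 and 26 in HF. Against IFE, 9 were open in HF and 3 in IFE, a net of 6 that was 11 without HF replicate 2 and 1 with the wider 50% of peaks. Against TD the net HF excess was 2, and it was 5 with equal numbers of the widest peaks, 1 within 10 kb and without TD replicate 1, 10 without TD replicate 2 and 6 without HF replicate 2. Tcf7l1, a repressor of Wnt targets found in follicle stem cells, had 14 and 17 of 20 in TD, 15 and 15 in IFE and 19 and 18 in HF. Its excess of 2 over TD was 1 without TD replicate 1 and 4 without TD replicate 2. It was 1, as was the excess of 3 over IFE, with equal numbers of the widest peaks. Tcf7 had 2 and 4 of 7 in TD, 4 and 2 in IFE and 6 and 6 in HF.

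Lef1 had 3 and 3 of 5 regions in TD, 2 and 2 in IFE and 3 and 4 in HF. A region 3.83 kb before its start (131105834 to 131106468) was open in HF alone, and a region inside it (131139188 to 131140421) was open in TD and IFE alone. Axin2 had 8 and 10 of 13 regions in TD, 9 and 9 in IFE and 11 and 12 in HF, and its start was open throughout. Inside the gene, 2 regions (108936228 to 108936680 and 108947287 to 108948174) were open in HF alone, and the net HF excess of 2 over IFE was 0 with the wider 50% of peaks, and it was 1 for equal numbers of the widest peaks or when peaks had to fill 50% of a region. A distant Axin2 region on chromosome 11 (108888672 to 108889837) had peaks of 1094 and 1156 bp in TD, 1166 and 1149 bp in IFE and 539 and 367 bp in HF. Axin1, a scaffold of the complex that destroys β-catenin, and Apc, from the same complex, were open at all their regions in all libraries, 1 and 3 in number, and Gsk3b, its kinase, had 3 and 4 of 5 in TD, 4 and 5 in IFE and 3 and 3 in HF.

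At regions open in all 6 libraries, peak length gave a second measure. A region was counted when each library of a population held at least 2 times the peak length of each library of the other. Of 185 Wnt regions, 3 were longer in TD than in HF (1.62%, beside 0.800% of all such regions), at Axin2, Wnt5a and Ror1, and 0 were longer in HF than in TD (0.198% of all). Longer in IFE than in HF were 4 (2.16% beside 1.22%), at those 3 genes and Rspo3. Longer in HF than in IFE were 3 (1.62% beside 1.00%), at Fzd2, Lrp6 and Dkk3. No Wnt region was longer by that rule in TD than in IFE (0.278% of all) or in IFE than in TD (0.0430%).

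Other genes of the pathway, 52 symbols of which 51 were in the gene table, had 382 regions at 49 genes. Of these, 15 were open in TD and closed in IFE (3.93%, beside 4.48% of all regions near genes) and 13 the reverse (3.40% beside 1.82%). Between TD and HF, 25 were open in TD and closed in HF (6.54% beside 8.02%) and 39 the reverse (10.2% beside 7.26%). Between IFE and HF, 39 were open in IFE and closed in HF (10.2% beside 9.91%) and 62 the reverse (16.2% beside 12.8%). Lgr5, an R-spondin receptor gene that marks follicle stem cells, had 8 and 8 of 15 regions in TD, 4 and 4 in IFE and 12 and 14 in HF. Daam1, which links Wnt receptors to actin, had 15 and 22 of 29 in TD, 17 and 15 in IFE and 25 and 25 in HF. Lgr4, also an R-spondin receptor gene, had 14 and 16 of 19 in TD, 12 and 13 in IFE and 18 and 18 in HF. Prickle2, a planar polarity gene, was open more often in IFE than in HF, with 18 and 26 of 32 in TD, 27 and 26 in IFE and 20 and 20 in HF.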

How the data were processed

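The data were 1 peak list per library, with 2 libraries for each of TD, IFE and HF. Trimming, alignment and peak calling used MACS2 2.2.7.1, SAMtools 1.9, Bowtie2 2.4.5 and Trim Galore 0.6.7 on build mm10, as named in the submitters' processing notes. Settings, read filters, any shift for the transposase and peak thresholds: not given in the sources used here. Deposited lists hold 4 columns (chromosome, start, end, name) and no score or height, so whether a peak is present depends on a depth that is unknown. Coordinates are counted from 1.

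Peaks sharing at least 1 bp were merged across libraries. Regions went to the nearest of 21887 RefSeq protein-coding spans (GRCm38.p6) within 50 kb, and ties to the gene with the nearer end. Exons, introns and UTRs were not used. Open means a peak in both libraries of a population, closed in neither. Region building was tested on simulated data. The genes described by rule were those with at least 2 regions differing in a direction, or a differing region within 1 kb of a gene end; Wnt1, Wnt6, Wnt10a, Tcf7, Gsk3b, Rspo1 and Rspo3, the genes open throughout, and the sequences printed were chosen after their values were seen. Genes and lists were chosen with earlier results of these data known, so no test over genes or regions was made, and a planned permutation p for the share of open Wnt regions is not given. A length rule and the leaving out of Ror2 were added after seeing the data. Sequences of the distal regions were not analysed here. Python 3.11.15, numpy 2.4.6 and pandas 2.3.3 were used.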

Additional observations from a re-analysis of the deposited data

How the results depend on the processing

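Each count was repeated with peaks required to fill 50% of a region, peaks up to 100 bp apart joined, windows of 10 and 100 kb, ties to every gene, the wider 50% of peaks, equal numbers of the widest peaks, regions near or far from gene ends, and each library left out. A further repeat left out the regions of Ror2. Of 84 repeats of the 6 counts, 66 stayed within 1.5 times. With the wider 50% of peaks, 6 Wnt regions were open in TD and closed in IFE (2.69%, beside 3.54% of all regions near genes), 18 in TD and closed in HF (8.07% beside 6.92%), 20 in HF and closed in TD (8.97% beside 6.56%), and 31 in HF and closed in IFE (13.9%, above the share of all). Within 1 kb of a gene end the 6 counts were 2 and 1 (TD, IFE; 3.64% and 1.82%, beside 1.01% and 0.593%), 2 and 0 (TD, HF; 3.64% and none, beside 2.39% and 1.91%) and 3 and 3 (IFE, HF; 5.45% each, beside 2.80% and 3.06%). When each list gave equal numbers of its widest peaks, 13 were open in IFE and closed in TD (3.39% beside 3.21%), and within 10 kb 23 were open in IFE and closed in HF (7.64% beside 9.39%). The cause of these moves was not tested, but the gene-end and 10 kb settings hold fewer regions by construction. Leaving out each library gave 24 to 51 and 7 to 23 regions (TD and IFE), 36 to 43 and 41 to 81 (TD and HF), and 41 to 45 and 81 to 102 (IFE and HF), since the rule for the reduced population loosens; the report gives the share over all regions beside those that moved by more than 1.5 times.

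TD minus IFE in the share of open Wnt regions turned to -1.12 points with the wider 50% of peaks, -0.521 when peak numbers were made equal and -0.852 without TD replicate 2, with a range of -0.852 to 11.8 over left-out libraries. TD minus HF turned to 1.82 points within 1 kb of gene ends and ranged from -14.4 to -1.70 over left-out libraries, and IFE minus HF from -14.8 to -12.2. Pairing the libraries by replicate number, as a replicate block, left the differences at 5.47, -8.03 and -13.5 points, with a smallest possible p of 0.5. Same-numbered libraries deviated together only weakly (r from 0.00492 to 0.0605 across regions). With 2 libraries a population, this cannot show whether same-numbered libraries shared mice or a sort, which the labels do not state. Of 460 repeats of the 33 net gene counts of at least 2, 411 kept their sign, 44 were at 0 and 5 turned. With the wider 50% of peaks Ror1 turned to 1 against HF in TD and 4 in IFE, and Ryk and Sfrp1 turned to -1 for TD against HF, and Dkk3 turned to -1 without TD replicate 2. With the wider 50% of peaks Ror2 had a net of 1 region for TD over IFE and 3 for HF over IFE.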
